A study of Homo sapiens with 24 samples.

Results

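The set described here holds 40 genes of the late cell cycle: the cyclins and CDK1 regulators of mitotic entry, the transcription factors FOXM1 and MYBL2, the mitotic kinases, the centromere and kinetochore, the anaphase machinery, the spindle, the midzone and the proliferation marker MKI67. The members were chosen by name, with earlier results of these data known. All 40 were found among the 57736 genes of the count table by matching its Ensembl gene IDs to GENCODE symbols. They lie on 17 chromosomes of GRCh37. The libraries came from U87-T, the U87 glioblastoma line with a hTERT transgene (the labels say U87, the study's methods U87-T). WT cells were the U87-T control carrying an empty Cas9 lentiviral vector, and DAXX_KO and ATRX_KO were each 1 single-cell CRISPR clone that had acquired features of alternative lengthening of telomeres, so a knockout effect and a clone's own traits cannot be told apart. Each knockout was sequenced in a series of its own beside its own WT libraries, untreated (control) or treated with etoposide, a topoisomerase II poison that breaks DNA, with 3 libraries in each of 8 groups. The dose and duration of etoposide for these libraries were not given in the sources used here, and the series cannot be told apart from any batch.

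Late cell cycle genes are repressed in quiescent and G1 cells by the DREAM complex, in which MuvB sits on a short promoter element, the cell cycle homology region (CHR), and they are activated in G2 when MuvB joins B-MYB, the product of MYBL2, and FOXM1. After DNA damage CDKN1A is induced, whose product p21 inhibits cyclin-dependent kinases, and DREAM then represses the same promoters. CCNB1, PLK1 and CDC20 are classic examples, whereas MYBL2 is better known as an E2F target that is first expressed at the G1/S boundary.

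RefSeq promoters, from 250 bases before to 50 bases after the start (GRCh38.p14), were found for 34 of the 40 members. On either strand, 23 of these 34 held TTTGAA, the canonical CHR (67.6%, against 15.2% of 35116 promoters of all genes), and 13 held the variant TTTAAA (38.2%, against 12.2%). Either form was present in 28 of 34 (82.4%, against 8424 of the 35116), and CCAAT, the NF-Y box, in 25 (73.5%, against 34.6%). A form of the CHR together with CCAAT occurred in 22 of 34 (64.7%, against 9.27%). E2F sites, spelled TTTGGCGC, TTTCGCGC or TTCCCGCC, were present in 4 of 34 (11.8%, against 4.24%). A match is a description of the letters only. The first 4 of the following promoters belong to members that fell with etoposide in WT of both series. CDC20 and PLK1 fell by more than the median member. CCNB1 (-3.00 and -2.73) and CCNB2 (-3.00 and -2.32) fell by less than the medians of -3.60 and -2.97 (DAXX and ATRX series). The last 2 belong to the members that responded least in WT. Capitals mark the CHR forms and CCAAT on either strand, which overlap each other nowhere except at the paired CCAAT of PTTG1.
CCNB1 (chr5:69166900-69167199, + strand): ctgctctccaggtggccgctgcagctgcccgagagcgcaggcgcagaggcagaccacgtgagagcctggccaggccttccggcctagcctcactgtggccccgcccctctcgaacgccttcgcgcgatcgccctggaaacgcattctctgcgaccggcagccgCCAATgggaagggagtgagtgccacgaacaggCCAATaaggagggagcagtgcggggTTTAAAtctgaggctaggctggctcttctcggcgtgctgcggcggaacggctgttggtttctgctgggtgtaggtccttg
CCNB2 (chr15:59104896-59105195, + strand): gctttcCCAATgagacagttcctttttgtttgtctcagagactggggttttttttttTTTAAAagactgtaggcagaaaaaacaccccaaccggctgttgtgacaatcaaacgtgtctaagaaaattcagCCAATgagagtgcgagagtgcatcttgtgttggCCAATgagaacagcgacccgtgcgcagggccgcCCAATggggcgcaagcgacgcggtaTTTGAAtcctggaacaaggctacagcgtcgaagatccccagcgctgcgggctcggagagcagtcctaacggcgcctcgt
CDC20 (chr1:43358731-43359030, + strand): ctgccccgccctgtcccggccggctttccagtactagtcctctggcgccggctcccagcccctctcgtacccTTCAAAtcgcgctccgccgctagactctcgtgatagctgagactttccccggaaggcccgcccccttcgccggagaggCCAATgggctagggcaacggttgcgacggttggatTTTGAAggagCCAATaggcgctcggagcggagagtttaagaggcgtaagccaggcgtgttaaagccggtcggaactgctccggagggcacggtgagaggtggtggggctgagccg
PLK1 (chr16:23678639-23678938, + strand): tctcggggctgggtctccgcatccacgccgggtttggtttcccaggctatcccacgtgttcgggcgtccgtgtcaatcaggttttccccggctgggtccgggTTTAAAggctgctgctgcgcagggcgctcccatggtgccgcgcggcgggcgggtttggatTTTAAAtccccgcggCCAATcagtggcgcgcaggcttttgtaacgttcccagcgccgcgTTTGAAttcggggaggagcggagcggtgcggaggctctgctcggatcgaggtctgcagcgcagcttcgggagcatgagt
PTTG1 (chr5:160421605-160421904, + strand): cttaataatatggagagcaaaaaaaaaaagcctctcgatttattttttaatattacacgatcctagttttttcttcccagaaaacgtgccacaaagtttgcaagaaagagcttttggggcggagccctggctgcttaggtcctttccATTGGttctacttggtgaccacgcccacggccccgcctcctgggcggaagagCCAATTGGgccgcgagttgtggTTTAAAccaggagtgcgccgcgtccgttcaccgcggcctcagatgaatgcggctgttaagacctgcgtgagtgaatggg
MYBL2 (chr20:43666864-43667163, + strand): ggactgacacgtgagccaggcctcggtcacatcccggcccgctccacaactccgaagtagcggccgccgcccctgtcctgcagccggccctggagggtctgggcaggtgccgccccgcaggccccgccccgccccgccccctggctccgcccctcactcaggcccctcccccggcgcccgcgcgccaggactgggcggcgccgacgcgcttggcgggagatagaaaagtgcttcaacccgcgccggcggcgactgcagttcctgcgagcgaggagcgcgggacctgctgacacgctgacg
In CCNB1 the TTTAAA began 30 bases before the start with CCAAT boxes at 55 and 87 bases, and CCNB2, PLK1 and CDC20 held TTTGAA at 29, 29 and 65 bases before the start. PTTG1, whose mRNA hardly moved in WT, held TTTAAA at 29 bases before the start and 3 CCAAT matches. The windows of MYBL2 and CDC25C held none of the searched motifs. CDC25C had WT responses of -3.18 and -2.37. Only the spellings above, in the window of a single start per gene, were searched. Sites near other starts or in other spellings would be missed.

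Library totals ran from 6928950 to 13298557 counts, and the knockouts were visible in the targeted mRNAs: DAXX stood at 4.60 to 6.57 CPM, counts scaled to a common total of 1000000, in DAXX_KO control against 32.7 to 35.2 in WT, and ATRX at 76.0 to 87.4 CPM in ATRX_KO control against 186 to 196 in WT. The genotype label of the DAXX_KO libraries reads ATRX KO, but their titles, DAXX mRNA and ATRX mRNA (361 to 414 CPM against 217 to 243 in WT) all placed them as DAXX knockouts. The 7 glioma and mesenchymal markers, VIM, CD44 and FN1 among them, summed in the DAXX series to 7265 to 7819 CPM in WT control, 5717 to 6033 in DAXX_KO control, 3553 to 3865 in WT with etoposide and 2879 to 3761 in DAXX_KO with etoposide. In the ATRX libraries the same sums were 7666 to 8063 CPM, 6413 to 8094, 3450 to 3583 and, in ATRX_KO with etoposide, 5883 to 6280, so these markers also moved with etoposide and with the knockouts. The 5 glial markers (GFAP, S100B, OLIG2, SOX2 and AQP4) summed to 1.35 to 5.59 CPM in WT and 0.112 to 1.14 CPM in the knockouts, so the astrocytic markers were near 0 in every library. The 6 markers of blood, epithelium, neurons and oligodendrocytes summed to 18.3 to 24.2 CPM in the DAXX series. They summed to 7.14 to 8.34 CPM in ATRX_KO control against 19.2 to 25.0 CPM in its WT, and to 6.49 to 8.73 against 20.5 to 23.8 CPM with etoposide; 2 of the 4 that passed the filter were lower in ATRX_KO in each case, MBP made up most of the sums, and HBB was at 0 in every library. The part of these markers in the results below was not tested. Levels are CPM scaled by TMM within a series and are not to be compared across series.

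Etoposide lowered nearly the whole set in WT. In the DAXX series all 40 members fell and none rose, with a median log2 fold change of -3.60, where 30.2% of the 15247 genes tested fell, 30.1% rose and the median was 0.03. In the ATRX series 38 of 40 fell and none rose, with a median of -2.97, beside 29.8% lower and 31.7% higher of 16371 genes and a median of 0.07. A call is an adjusted p under 0.05 in edgeR's quasi-likelihood test. The summed level of the 40 genes was 8611 to 8881 CPM in WT control and 1644 to 1704 CPM with etoposide in the DAXX series, and 9411 to 9699 against 2408 to 2461 CPM in the ATRX series. In bulk RNA, fewer cells in G2 and mitosis and less of these RNAs per cell cannot be told apart. The study describes its experiments in general as biologically replicated, and the labels do not say that the 3 libraries of a group came from separate cultures, so p-values measure the spread between libraries, which may be partly technical.

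Without treatment both knockouts had less of the set than WT. In DAXX_KO control 28 of 40 members were lower and 1 was higher, with a median log2 fold change of -0.45, beside 26.5% lower, 26.9% higher and a median of 0.02 over all genes tested. In ATRX_KO control 27 were lower and none higher, with a median of -0.33, beside 21.0% lower, 20.8% higher and a median of 0.02. The summed level was 5985 to 6280 CPM in DAXX_KO control and 6598 to 7136 CPM in ATRX_KO control, in each series below every WT control library. The 21 members lower in both knockouts (beside 12.7% of the 15039 genes tested in both series) came from every role except the transcription factors and the proliferation marker; they were the cyclins and kinase CCNB1, CCNB2 and CDK1, PLK1 and BUB1B, AURKB and BIRC5, CENPE, CENPF and NUF2, CDC20, UBE2C and PTTG1, HMMR, KIF11, KIF14 and NUSAP1, and ANLN, ECT2, KIF20A and KIF23. Of these calls in ATRX_KO, that of CCNB2 was lost without any of 8 of the 12 libraries, CCNB1 without any of 5, KIF23 without any of 4 and HMMR without 1, and in DAXX_KO that of UBE2C was lost without either of 2. MYBL2 was called in opposite directions, higher in DAXX_KO and lower in ATRX_KO, the latter call lost without any of 5 of the 12 libraries. Scaling by library totals alone, without TMM, moved the median of all genes in DAXX_KO control from 0.02 to 0.20 and the split of all calls to 18.6% lower and 36.3% higher; 23 members were then lower and 5 higher, and in ATRX_KO control 20 were lower and none higher. Relative to all genes, the direction of the set was the same under both scalings.

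The etoposide response of the knockouts had the same direction. In DAXX_KO 38 members fell and 1 rose, with a median of -3.06, beside 27.5% lower, 27.1% higher and a median of 0.00 over all genes. In ATRX_KO all 40 fell and none rose, with a median of -2.69, beside 25.2% lower, 24.3% higher and a median of 0.03. The interaction tests whether the response of a knockout differed from that of its own WT, and a positive value means a smaller fall in the knockout. It was positive and past the threshold for 19 members in the DAXX series and negative for none, with a median of 0.45, beside 8.18% positive, 5.90% negative and a median of 0.01 over all genes. In the ATRX series it was positive for 8 members and negative for 2, with a median of 0.17, beside 8.36% positive, 7.64% negative and a median of -0.01. With library totals alone the DAXX counts were 15 positive and 1 negative beside 5.21% and 8.87% of all genes. The ATRX counts were then 12 positive and 2 negative beside 9.46% and 6.73%. A smaller fall in DAXX_KO did not always leave more mRNA than in WT with etoposide. Of the 19 members, BIRC5, CDC20 and CENPF were lower in DAXX_KO with etoposide than in WT with etoposide. CCNB1, CDCA8, ECT2, KIF11, KIF2C and PLK1 were called in neither direction in that comparison.

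**Figure D1:**
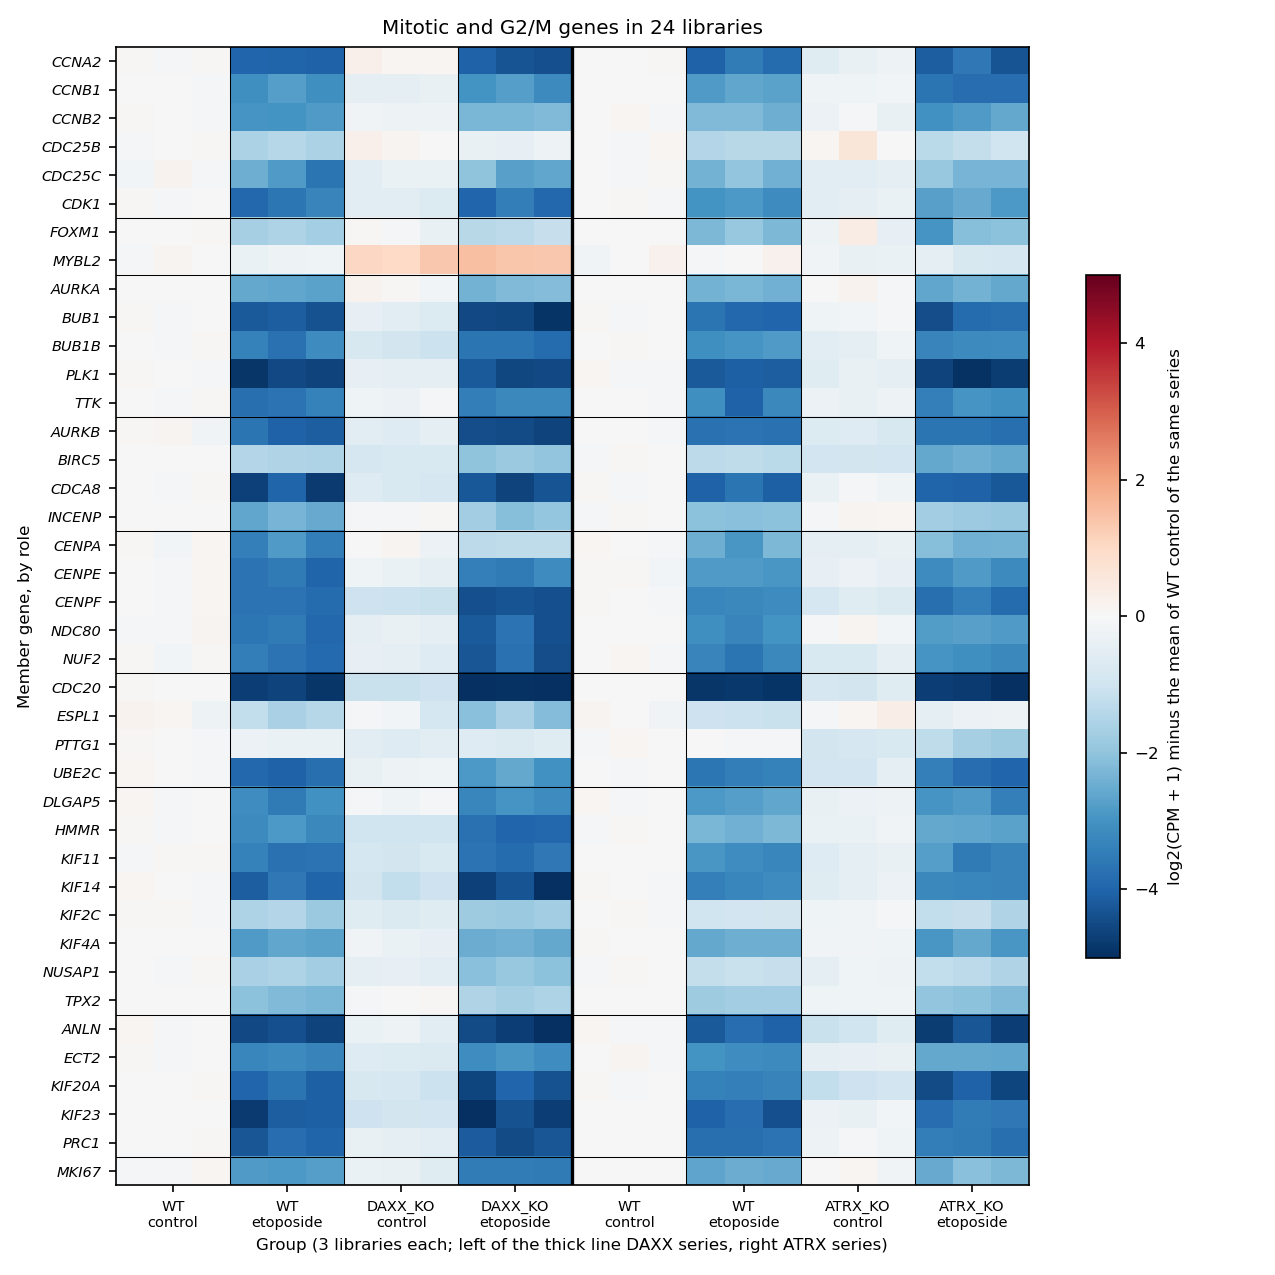
Levels of the 40 members (rows, by role) in the 24 libraries (columns, 3 per group), as log2(CPM + 1) minus the mean of WT control of the same series; blue is lower. The etoposide columns are blue for nearly every gene in all 4 cell populations, and PTTG1 in WT and MYBL2 stay pale or red.

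With etoposide present, members were called on both sides of WT in both knockouts. In DAXX_KO 13 members were lower and 11 higher than in WT with etoposide, with a median of -0.17, beside 25.3% lower, 27.8% higher and a median of 0.01 over all genes. In ATRX_KO 14 were lower and 7 higher, with a median of -0.20, beside 22.9% lower, 23.0% higher and a median of 0.01; the 7 became 3 without replicate 2 of ATRX_KO with etoposide and 4 without replicate 1 or 3 of WT with etoposide. With library totals alone 9 were lower and 13 higher in DAXX_KO, and 10 lower and 9 higher in ATRX_KO, beside 21.6% lower and 31.5% higher of all genes in DAXX_KO and 18.9% and 28.6% in ATRX_KO. These shares of members lie near those of all genes in DAXX_KO under this scaling. With TMM the share of higher members in DAXX_KO also lies near that of all genes. The summed level was 1632 to 1638 CPM in DAXX_KO with etoposide, just under WT with etoposide at 1644 to 1704 CPM, and 1407 to 1585 CPM in ATRX_KO, under WT at 2408 to 2461 CPM. PTTG1 was the largest term of each etoposide sum. Without PTTG1 the etoposide levels were 1125 to 1164 CPM in DAXX_KO against 1019 to 1089 CPM in WT, which turned the order round. They were 1126 to 1257 against 1454 to 1529 CPM in the ATRX series. MYBL2 remained in these sums, at 136.5 to 152.2 CPM in DAXX_KO with etoposide against 41.58 to 44.55 CPM in its WT. The order of the DAXX sums thus depends on single members, and a sum without MYBL2 was not taken.

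**Figure D2:**
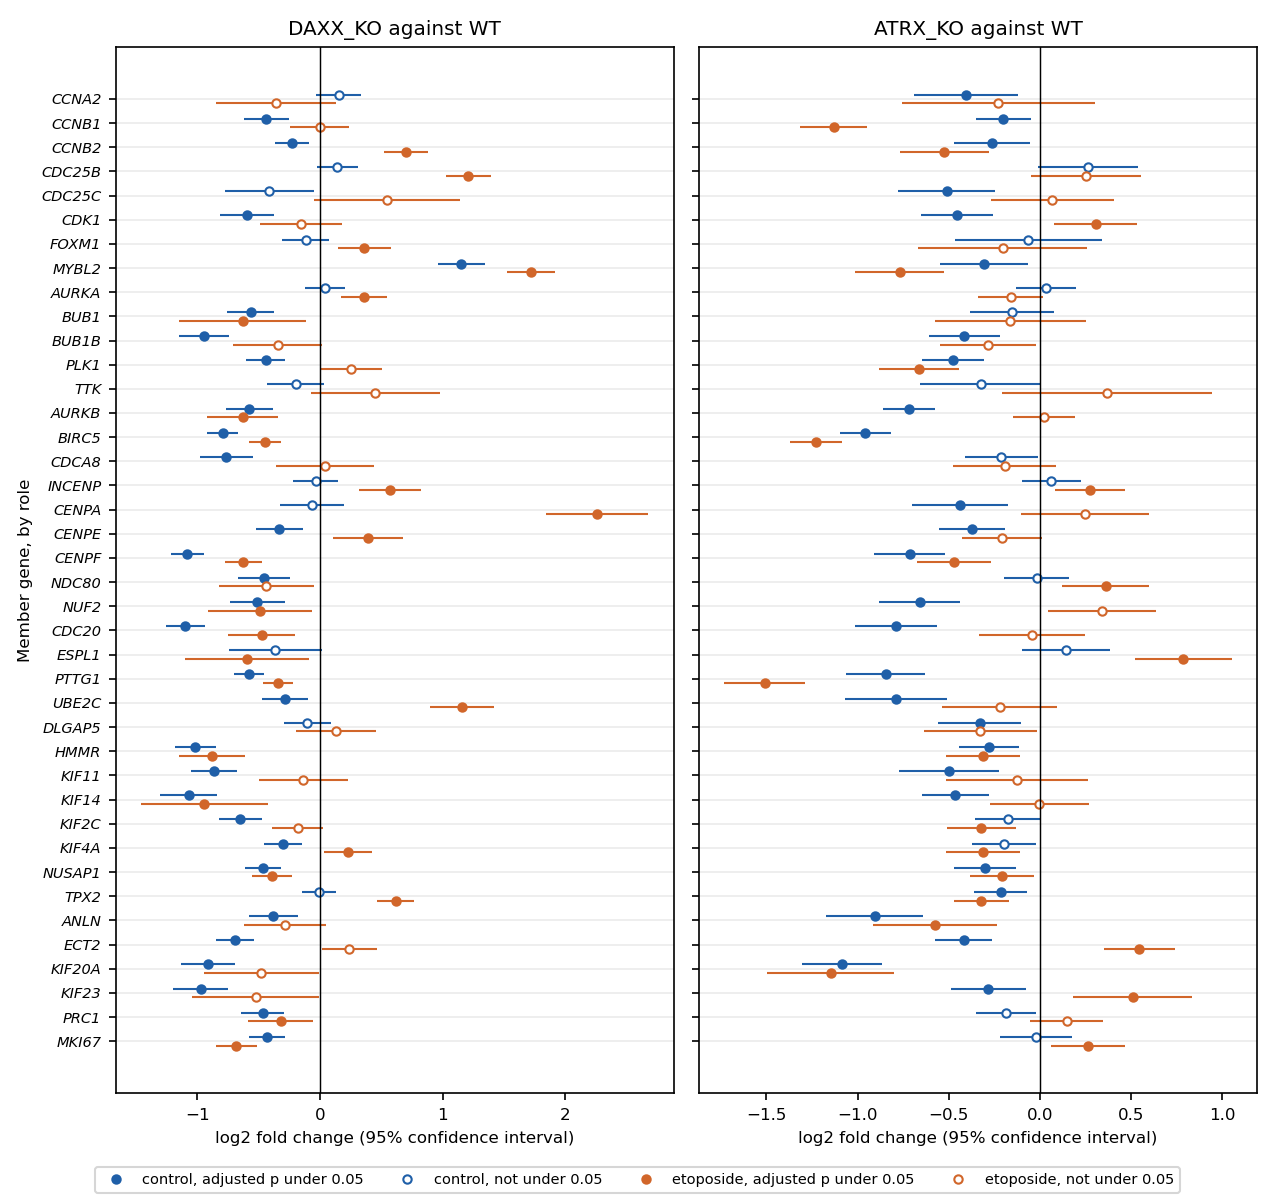
Knockout against WT for each member in control (blue) and with etoposide (orange), as log2 fold changes with 95% confidence intervals; filled points passed an adjusted p of 0.05. Blue points lie left of 0 for most members in both panels, while orange points spread to both sides, from -0.94 for KIF14 to 2.26 for CENPA in DAXX_KO and from -1.51 for PTTG1 to 0.79 for ESPL1 in ATRX_KO.

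Among the genes of mitotic entry, CDK1 encodes the kinase that drives mitosis. Its level in the DAXX series was 198, 182 and 183 CPM in WT control, 128, 129 and 115 in DAXX_KO control, 11.4, 14.2 and 18.1 in WT with etoposide and 11, 16.4 and 11.5 in DAXX_KO with etoposide. ATRX_KO and its WT had 208, 216 and 196 CPM in WT control, 142, 146 and 165 in ATRX_KO control, 25.5, 27.8 and 22.2 in WT with etoposide and 30.3, 35.4 and 27.6 in ATRX_KO with etoposide. Both knockouts lay below WT in control and etoposide groups lay far below all control groups, while with etoposide the knockout and WT libraries overlapped in both series. CDK1 fell in WT by log2 fold changes of -3.69 ± 0.13 and -3.04 ± 0.11 (± SE, 3 libraries per group, DAXX and ATRX series in that order), and it was lower in DAXX_KO control (-0.60 ± 0.10) and ATRX_KO control (-0.45 ± 0.09). Its interaction was 0.76 ± 0.14 in the ATRX series (adjusted p = 0.00197) and 0.44, 95% interval 0.04 to 0.84, in the DAXX series. Intervals are per gene and unadjusted, so 1 that leaves out 0 need not pass the adjusted threshold.

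CCNB1 encodes cyclin B1, the partner of CDK1. In the DAXX series it stood at 205, 202 and 195 CPM in WT control, 144, 145 and 156 in DAXX_KO control, 23.2, 28.7 and 22.9 in WT with etoposide and 24.6, 29.2 and 21 in DAXX_KO with etoposide. The ATRX series gave 200, 202 and 199 CPM in WT control, 172, 171 and 180 in ATRX_KO control, 27.6, 32 and 30.8 in WT with etoposide and 14.8, 13.3 and 13.2 in ATRX_KO with etoposide. With etoposide, DAXX_KO and WT overlapped, whereas all 3 ATRX_KO libraries lay below all 3 WT libraries. The response was -3.00 ± 0.10 in WT and -2.57 ± 0.10 in DAXX_KO, an interaction of 0.44 ± 0.14 (adjusted p = 0.0487), and -2.73 ± 0.08 in WT and -3.66 ± 0.08 in ATRX_KO, an interaction of -0.93 ± 0.11 (adjusted p = 4.89e-05). It was the 1 member with interactions called in opposite directions, although the call in the DAXX series was lost when any of 9 of the 12 libraries was left out.

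CCNB2, cyclin B2, also took opposite sides with etoposide. Its levels were 156, 154 and 147 CPM in WT control, 135, 129 and 127 in DAXX_KO control, 19, 18.1 and 20.2 in WT with etoposide and 30.7, 30.1 and 32.2 in DAXX_KO with etoposide. For the ATRX series they were 156, 168 and 153 CPM in WT control, 129, 147 and 123 in ATRX_KO control, 33.3, 33.4 and 28.8 in WT with etoposide and 18.8, 21.6 and 25.9 in ATRX_KO with etoposide. Every DAXX_KO etoposide library lay above WT with etoposide (0.70 ± 0.09) and every ATRX_KO etoposide library below it (-0.52 ± 0.11). CCNA2, cyclin A2, had low levels after treatment: 55.8, 49.7 and 55 CPM in WT control, 63.9, 57.5 and 57 in DAXX_KO control, 2.51, 2.39 and 2.29 in WT with etoposide and 2.32, 1.76 and 1.57 in DAXX_KO with etoposide. The ATRX libraries gave 55.6, 54.6 and 57.4 CPM in WT control, 36.4, 43.4 and 46.8 in ATRX_KO control, 2.49, 4.01 and 2.91 in WT with etoposide and 2.31, 3.75 and 1.88 in ATRX_KO with etoposide. Control DAXX_KO libraries lay just above WT (0.15, 95% interval -0.03 to 0.33), and the fall of -4.98 ± 0.14 in DAXX_KO was the steepest response of any member in that clone. EXOSC9 overlaps CCNA2 and held more counts than CCNA2 itself (10201 against 6764 over 24 libraries).

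CDC25B and CDC25C encode phosphatases that activate CDK1. CDC25B was at 75.6, 77.8 and 80.7 CPM in WT control, 93, 86.4 and 78.8 in DAXX_KO control, 25.1, 28.7 and 25.2 in WT with etoposide and 59.4, 59.1 and 64.5 in DAXX_KO with etoposide. CDC25B beside ATRX_KO read 76.6, 72.6 and 81.9 CPM in WT control, 83.3, 118 and 76.1 in ATRX_KO control, 27.5, 29.2 and 28.6 in WT with etoposide and 29.7, 33.3 and 38.3 in ATRX_KO with etoposide. Control groups overlapped in both series, and replicate 2 of ATRX_KO control stood apart above the others. All etoposide libraries of DAXX_KO lay above those of WT, so that the fall was -0.50 ± 0.08 in DAXX_KO against -1.56 ± 0.09 in WT, an interaction of 1.07 ± 0.12 (adjusted p = 6.55e-06). No such difference passed in the ATRX series, where the interaction was -0.01, 95% interval -0.42 to 0.40. CDC25C read 30.5, 38.4 and 31.8 CPM in WT control, 22.7, 26.3 and 26.6 in DAXX_KO control, 5.40, 3.83 and 1.75 in WT with etoposide and 7.43, 4.25 and 4.71 in DAXX_KO with etoposide. Its ATRX series values were 39.2, 37.4 and 40.7 CPM in WT control, 26.8, 27 and 28.4 in ATRX_KO control, 6.74, 9.25 and 6.62 in WT with etoposide and 9.87, 7.0 and 7.0 in ATRX_KO with etoposide. CDC25C was below WT in every control library of both knockouts, called in ATRX_KO (-0.51 ± 0.12) but not in DAXX_KO (-0.41, 95% interval -0.77 to -0.05). FAM53C overlaps CDC25C with 18437 counts against 4703 over the 24 libraries.

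The 2 transcription factors had smaller responses in WT than the median member in both series. FOXM1, the G2/M activator, was at 128, 128 and 135 CPM in WT control, 137, 122 and 101 in DAXX_KO control, 40.5, 43.4 and 39.1 in WT with etoposide and 49.2, 51.5 and 57.3 in DAXX_KO with etoposide. FOXM1 in ATRX_KO and its own WT stood at 124, 124 and 124 CPM in WT control, 105, 159 and 92.7 in ATRX_KO control, 25, 33 and 25.3 in WT with etoposide and 15, 27.3 and 29.4 in ATRX_KO with etoposide. FOXM1 fell in WT (-1.66 ± 0.10 and -2.16 ± 0.21), and control libraries of both knockouts overlapped WT (-0.12, 95% interval -0.31 to 0.07; -0.06, 95% interval -0.46 to 0.34). Replicate 2 of ATRX_KO control lay above the other 2 by over 50 CPM. With etoposide all 3 DAXX_KO libraries lay above WT, an interaction of 0.48 ± 0.14 (adjusted p = 0.0245). ITFG2 and RHNO1 overlap FOXM1, with 9174 counts against its 19417 over the 24 libraries.

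MYBL2, which encodes B-MYB, measured 49, 57.9 and 51.2 CPM in WT control, 110, 106 and 134 in DAXX_KO control, 41.6, 43.4 and 44.5 in WT with etoposide and 152, 138 and 136 in DAXX_KO with etoposide. Values of MYBL2 around ATRX_KO were 99.5, 111 and 130 CPM in WT control, 99.4, 87.4 and 89 in ATRX_KO control, 106, 112 and 132 in WT with etoposide and 79.7, 63.8 and 62.7 in ATRX_KO with etoposide. DAXX_KO lay above WT in every library with and without etoposide, and ATRX_KO lay below WT in both, by a narrow margin in control, where 1 ATRX_KO library at 99.4 CPM nearly met a WT library at 99.5. The knockout effect in control was 1.15 ± 0.09 in DAXX_KO and -0.31 ± 0.11 in ATRX_KO. The response was -0.29 ± 0.10 in WT, a rise of 0.28 ± 0.09 in DAXX_KO, 0.04, 95% interval -0.20 to 0.28, in WT of the ATRX series and -0.42 ± 0.12 in ATRX_KO. The rise in DAXX_KO was no longer called without 3 of the libraries taken singly: replicates 1 and 2 of its control and replicate 1 of its etoposide group. The 2 WT controls differed too, by -1.06 ± 0.11 in a fit of all 24 libraries (adjusted p = 9.26e-07), with the DAXX series lower. MYBL2 lies on chromosome 20, and the 60 tested genes nearest to it had a median of 0.40 in DAXX_KO control and 0.45 with etoposide, against 0.06 and 0.07 in ATRX_KO; the part of the surrounding genes in these values was not tested. This comparison with nearby genes was chosen after seeing the data.

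Of the mitotic kinases, PLK1 acts from mitotic entry to cytokinesis. It was measured at 350, 343 and 312 CPM in WT control, 250, 244 and 244 in DAXX_KO control, 10.7, 13.8 and 12.6 in WT with etoposide and 17.1, 13.5 and 13.7 in DAXX_KO with etoposide. The ATRX series showed 430, 392 and 390 CPM in WT control, 265, 313 and 294 in ATRX_KO control, 20.8, 22.9 and 22.1 in WT with etoposide and 15.4, 12.3 and 13.9 in ATRX_KO with etoposide. Both knockouts lay under WT in control, and with etoposide ATRX_KO lay under WT while DAXX_KO overlapped it. PLK1 had the second steepest fall in WT of the DAXX series (-4.76 ± 0.10) and the steepest in ATRX_KO (-4.39 ± 0.10), with an interaction of 0.69 ± 0.14 in the DAXX series (adjusted p = 0.00246) and -0.19, 95% interval -0.46 to 0.09, in the ATRX series. AURKA, the spindle pole kinase, was at 273, 266 and 281 CPM in WT control, 308, 288 and 248 in DAXX_KO control, 46, 44.7 and 42.4 in WT with etoposide and 51.7, 58.5 and 60.4 in DAXX_KO with etoposide. Its ATRX series levels were 255, 260 and 250 CPM in WT control, 253, 286 and 243 in ATRX_KO control, 48.8, 51 and 47.6 in WT with etoposide and 40.7, 48.1 and 42.9 in ATRX_KO with etoposide. AURKA overlapped between knockout and WT in control in both series (0.04, 95% interval -0.12 to 0.20; 0.03, 95% interval -0.13 to 0.20), and it was higher only in DAXX_KO with etoposide among the 4 knockout comparisons (0.36 ± 0.09).

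BUB1, a checkpoint kinase, ran at 69.5, 61.9 and 67.7 CPM in WT control, 49.2, 44.1 and 41.4 in DAXX_KO control, 2.64, 2.87 and 2.29 in WT with etoposide and 1.95, 1.86 and 1.23 in DAXX_KO with etoposide. For the ATRX series it ran at 71.4, 64.4 and 67.6 CPM in WT control, 58.1, 62.3 and 62.7 in ATRX_KO control, 4.53, 3.53 and 3.41 in WT with etoposide and 2.22, 3.82 and 4.07 in ATRX_KO with etoposide. DAXX_KO lay below WT with and without etoposide (-0.56 ± 0.09 in control), and the difference of ATRX_KO control did not pass (-0.15, 95% interval -0.38 to 0.08). BUB1B, the checkpoint protein BubR1, was lower in DAXX_KO control by -0.94 ± 0.10 and in ATRX_KO control by -0.41 ± 0.09. TTK, the kinase MPS1, fell in WT (-4.22 ± 0.17 and -3.91 ± 0.21) and gave control differences of -0.20, 95% interval -0.43 to 0.03; -0.32, 95% interval -0.66 to 0.01.

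The chromosomal passenger complex corrects kinetochore attachments through AURKB. AURKB was at 318, 338 and 276 CPM in WT control, 207, 198 and 220 in DAXX_KO control, 24, 17.8 and 16.7 in WT with etoposide and 13.5, 12.9 and 11.4 in DAXX_KO with etoposide. ATRX_KO and its WT had 350, 349 and 332 CPM in WT control, 211, 221 and 195 in ATRX_KO control, 25.2, 25.9 and 25.1 in WT with etoposide and 26.5, 26.4 and 24.4 in ATRX_KO with etoposide. The 2 series differed with etoposide: DAXX_KO lay below WT, and ATRX_KO overlapped WT. Hence the interaction was 0.74 ± 0.11 in the ATRX series (adjusted p = 0.000222) and -0.05, 95% interval -0.40 to 0.29, in the DAXX series, and the difference between the 2 interactions was -0.81 ± 0.20 (adjusted p = 0.0205).

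BIRC5, survivin, kept more of its mRNA than most members. It was at 634, 615 and 604 CPM in WT control, 342, 362 and 364 in DAXX_KO control, 225, 218 and 212 in WT with etoposide and 152, 170 and 158 in DAXX_KO with etoposide. The ATRX libraries gave 676, 735 and 682 CPM in WT control, 356, 364 and 356 in ATRX_KO control, 282, 291 and 274 in WT with etoposide and 118, 127 and 117 in ATRX_KO with etoposide. Both knockouts lay below WT with and without etoposide, with no overlap. The response of WT was -1.50 ± 0.06 and -1.30 ± 0.07, and the knockout effects were -0.79 ± 0.06 in DAXX_KO control and -0.96 ± 0.07 in ATRX_KO control. CDCA8, borealin, was lower in DAXX_KO control (-0.76 ± 0.10) with -0.21, 95% interval -0.41 to -0.01, in ATRX_KO. INCENP, the scaffold, was the member of this complex that was higher with etoposide in both knockouts (0.57 ± 0.12 and 0.27 ± 0.09), and its control values were -0.04, 95% interval -0.22 to 0.15; 0.06, 95% interval -0.10 to 0.23.

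At the centromere, CENPA encodes the histone H3 variant that marks it. CENPA was at 33, 28.9 and 34.6 CPM in WT control, 31.4, 34.9 and 26.2 in DAXX_KO control, 2.14, 3.59 and 2.02 in WT with etoposide and 12.2, 12.8 and 12.6 in DAXX_KO with etoposide. CENPA beside ATRX_KO read 41.4, 38.6 and 37.1 CPM in WT control, 28, 28.6 and 29.8 in ATRX_KO control, 6.37, 4.29 and 7.42 in WT with etoposide and 8.18, 6.49 and 6.85 in ATRX_KO with etoposide. In DAXX_KO with etoposide all 3 libraries lay over 3 times above every WT library, although control libraries overlapped. The interaction of 2.32 ± 0.24 (adjusted p = 2.86e-06) was the largest of any member, that in the ATRX series was 0.69 ± 0.21 (adjusted p = 0.034), and the difference between them was 1.62 ± 0.33 (adjusted p = 0.00495). SLC35F6 overlaps CENPA with 19367 counts against 4940 over 24 libraries, and the nearest 60 genes had a median of -0.17 in DAXX_KO with etoposide.

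**Figure D3:**
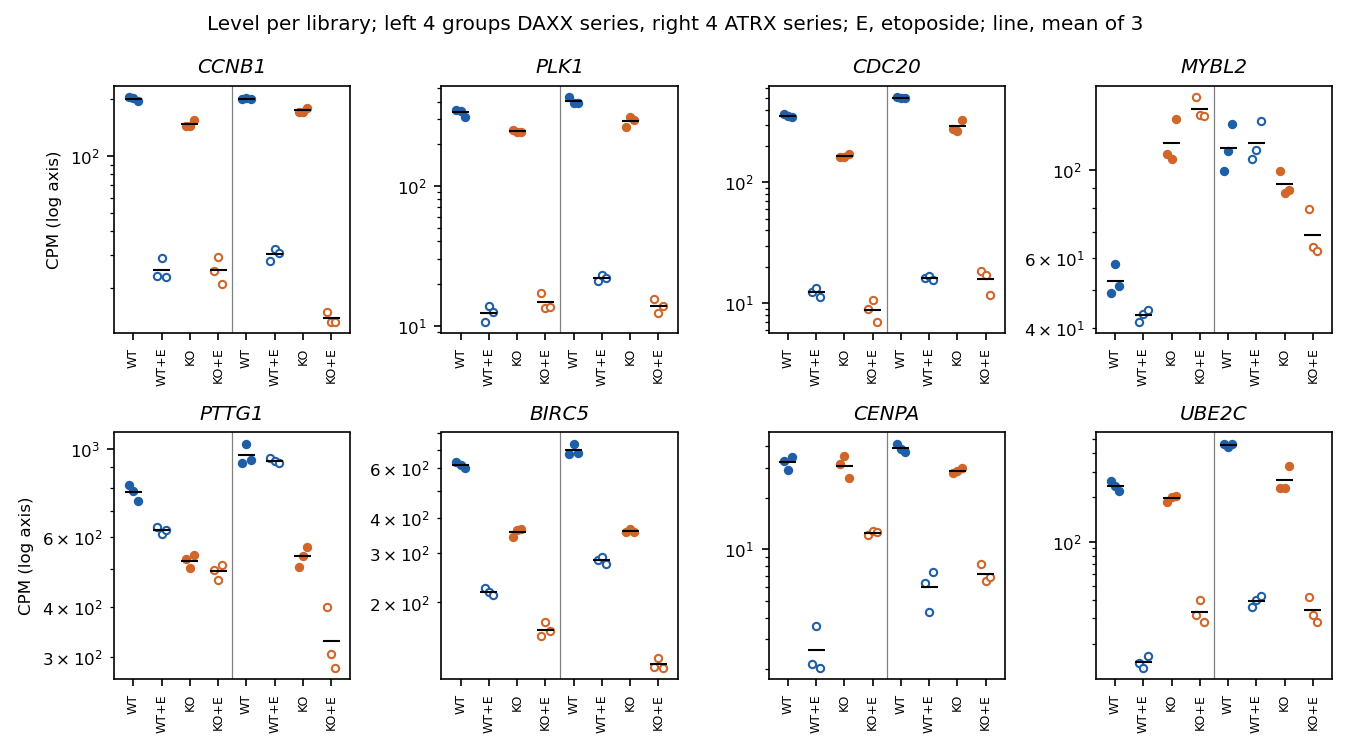
Level of 8 members in every library as CPM on a log axis, with WT in blue, knockouts in orange, filled points for control, open points for etoposide (E), and a line at the mean of 3 libraries. CCNB1, PLK1 and CDC20 drop with etoposide in all 4 populations, MYBL2 and PTTG1 hardly in WT, and CENPA and UBE2C drop less in DAXX_KO than in its WT.

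CENPF, a kinetochore protein of late G2, was at 1205, 1133 and 1303 CPM in WT control, 598, 568 and 554 in DAXX_KO control, 92, 93.2 and 82.5 in WT with etoposide and 56.7, 59.9 and 57 in DAXX_KO with etoposide. CENPF in ATRX_KO and its own WT stood at 1132, 1109 and 1065 CPM in WT control, 623, 723 and 669 in ATRX_KO control, 115, 119 and 123 in WT with etoposide and 79.7, 101 and 76 in ATRX_KO with etoposide. Both knockouts lay below WT in control and with etoposide, and the control difference in DAXX_KO was -1.08 ± 0.06. CENPE, a kinetochore motor, was lower in DAXX_KO control (-0.33 ± 0.09) and higher with etoposide (0.39 ± 0.14). NUF2 and NDC80 are partners in the microtubule-binding NDC80 complex. NUF2 was at 113, 99.1 and 114 CPM in WT control, 81.9, 77.6 and 69.4 in DAXX_KO control, 8.92, 7.42 and 6.34 in WT with etoposide and 4.63, 7.35 and 4.03 in DAXX_KO with etoposide. Its ATRX series values read 119, 124 and 109 CPM in WT control, 69.7, 68.8 and 84.7 in ATRX_KO control, 11, 8.30 and 11.5 in WT with etoposide and 14.5, 13.1 and 11.6 in ATRX_KO with etoposide. ATRX_KO etoposide libraries lay just above WT although ATRX_KO control libraries lay well below, which gave the largest interaction of the ATRX series at 1.00 ± 0.18 (adjusted p = 0.00117). NDC80 was lower in DAXX_KO control (-0.46 ± 0.10) and gave -0.02, 95% interval -0.20 to 0.16, in ATRX_KO control.

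Anaphase is set off by CDC20 and UBE2C, the activator and the ubiquitin-conjugating enzyme of the anaphase-promoting complex. CDC20 was at 364, 352 and 345 CPM in WT control, 162, 162 and 171 in DAXX_KO control, 12.4, 13.3 and 11.3 in WT with etoposide and 8.90, 10.7 and 7.06 in DAXX_KO with etoposide. Values of CDC20 around ATRX_KO were 505, 501 and 498 CPM in WT control, 277, 265 and 328 in ATRX_KO control, 16.2, 16.7 and 15.7 in WT with etoposide and 18.4, 17.2 and 11.8 in ATRX_KO with etoposide. It had the steepest fall in both WT groups (-4.83 ± 0.10 and -4.95 ± 0.13) and the largest decrease in DAXX_KO control (-1.10 ± 0.08); in ATRX_KO control the value was -0.79 ± 0.11. With etoposide DAXX_KO lay below WT and ATRX_KO overlapped it. Both interactions were positive, 0.63 ± 0.15 (adjusted p = 0.00839) and 0.75 ± 0.17 (adjusted p = 0.00789), as were both interactions of CENPA and of ECT2; that of CENPA in the ATRX series was lost without any of 7 of the 12 libraries.

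UBE2C stood at 258, 239 and 222 CPM in WT control, 186, 200 and 204 in DAXX_KO control, 14.9, 13.8 and 16.6 in WT with etoposide and 31.4, 40.3 and 28.6 in DAXX_KO with etoposide. The ATRX series had 463, 439 and 464 CPM in WT control, 231, 232 and 328 in ATRX_KO control, 35.8, 40.2 and 42.8 in WT with etoposide and 42.2, 31.9 and 28.2 in ATRX_KO with etoposide. DAXX_KO lay below WT in control and above WT with etoposide, where no libraries overlapped, and the interaction was 1.44 ± 0.15 (adjusted p = 4.17e-06); in the ATRX series it was 0.57, 95% interval 0.14 to 0.99. UBE2C lies on chromosome 20 with CDC25B, AURKA, TPX2 and MYBL2, and all 5 were higher in DAXX_KO with etoposide, beside 27.8% of all genes. The medians of their 60 nearest genes in that comparison were 0.59 at UBE2C, 0.18 at CDC25B, 0.18 at AURKA, 0.35 at TPX2 and 0.45 at MYBL2. The members' own values were 1.15, 1.21, 0.36, 0.62 and 1.72 in the same order. With etoposide all 5 lay above their neighbours. In DAXX_KO control UBE2C, TPX2 and AURKA lay below theirs, by gaps of -0.78, -0.37 and -0.24. CDC25B (0.11) and MYBL2 (0.76) lay above theirs in control. Like the comparison at MYBL2, this one was chosen after seeing the data. The part of the surrounding genes in these values was not tested.

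PTTG1, securin, which guards the cohesin protease separase, behaved unlike the other anaphase genes. It was at 815, 786 and 742 CPM in WT control, 528, 503 and 541 in DAXX_KO control, 637, 613 and 626 in WT with etoposide and 498, 468 and 512 in DAXX_KO with etoposide. ATRX_KO and its WT had 925, 1033 and 941 CPM in WT control, 506, 540 and 567 in ATRX_KO control, 954, 932 and 924 in WT with etoposide and 401, 305 and 281 in ATRX_KO with etoposide. Both knockouts lay below WT in every comparison. In WT the etoposide response was -0.32 ± 0.06 in the DAXX series, without overlap, and -0.04, 95% interval -0.26 to 0.17, in the ATRX series, where the libraries overlapped. The ATRX_KO response was -0.71 ± 0.10, an interaction of -0.66 ± 0.14 (adjusted p = 0.00519), and with etoposide stood at -1.51 ± 0.10 against WT, the largest decrease in that comparison. PTTG1 has near-identical gene copies, so how its reads were shared among them is uncertain. ESPL1, separase itself, read 27, 25.5 and 20.3 CPM in WT control, 22.2, 21.8 and 12.8 in DAXX_KO control, 9.80, 7.18 and 8.37 in WT with etoposide and 4.88, 7.14 and 4.59 in DAXX_KO with etoposide. For the ATRX series ESPL1 read 33.2, 30.6 and 26.9 CPM in WT control, 29, 32.6 and 38.7 in ATRX_KO control, 14.1, 13.9 and 13.2 in WT with etoposide and 21.7, 24.2 and 25.4 in ATRX_KO with etoposide. With etoposide DAXX_KO lay below WT (-0.60 ± 0.24) and ATRX_KO above it (0.79 ± 0.12), the largest increase in the ATRX comparison, and the interaction was 0.64 ± 0.17 there (adjusted p = 0.0165).

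**Figure D4:**
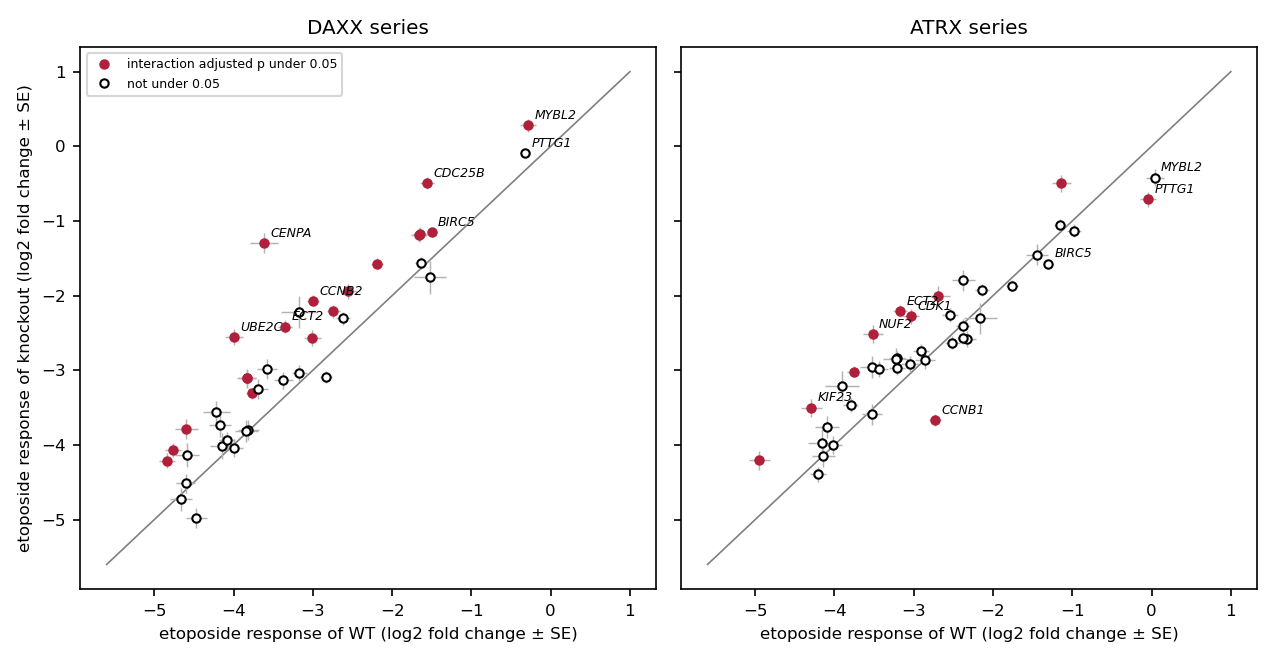
Etoposide response of WT (x axis) against that of the knockout (y axis) for each member as log2 fold changes with SE bars; the grey line marks equal responses and red points have an interaction past an adjusted p of 0.05. In the DAXX series all 19 red points lie above the line, and in the ATRX series 8 lie above and 2 below it.

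Spindle motors and microtubule factors fell in all 4 populations, 8 of 8 in each, as did 38 to 40 of all 40 members. Of all genes tested, 25.2% to 30.2% fell. HMMR, a spindle assembly factor, was at 128, 116 and 123 CPM in WT control, 61, 59.9 and 60.1 in DAXX_KO control, 12.7, 15.8 and 12 in WT with etoposide and 8.17, 6.94 and 7.06 in DAXX_KO with etoposide. The ATRX libraries gave 93.4, 105 and 100 CPM in WT control, 77.9, 79.5 and 88.8 in ATRX_KO control, 19.4, 18 and 20.2 in WT with etoposide and 16, 15.5 and 14.9 in ATRX_KO with etoposide. Knockouts lay below WT throughout, and the control effect was larger in DAXX_KO (-1.02 ± 0.08) than in ATRX_KO (-0.28 ± 0.08), a difference of -0.74 ± 0.11 (adjusted p = 7.63e-06). KIF14, a motor of the midzone and the late spindle, was at 88, 83.2 and 77.8 CPM in WT control, 43.7, 35.2 and 39.6 in DAXX_KO control, 3.77, 5.98 and 4.18 in WT with etoposide and 2.32, 3.21 and 1.68 in DAXX_KO with etoposide. Its ATRX series levels read 81, 79.2 and 76.3 CPM in WT control, 51.9, 56 and 63.6 in ATRX_KO control, 6.56, 7.34 and 7.92 in WT with etoposide and 7.64, 7.29 and 6.85 in ATRX_KO with etoposide. DAXX_KO lay below WT in control and with etoposide, and ATRX_KO below it only in control.

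Of the other spindle members, KIF11, the motor that separates the poles, was lower in control in both knockouts (-0.86 and -0.50). KIF2C, a microtubule depolymerase, and KIF4A, a chromokinesin, were lower in DAXX_KO control (-0.65 and -0.30), with ATRX_KO values of -0.17, 95% interval -0.35 to 0.00; -0.20, 95% interval -0.37 to -0.02. TPX2, the activator of AURKA, was higher in DAXX_KO (0.62) and lower in ATRX_KO (-0.32) with etoposide. NUSAP1, a microtubule bundler, was lower in all 4 knockout comparisons, from -0.47 in DAXX_KO control to -0.21 in ATRX_KO with etoposide, the latter call lost without any of 9 of the 12 libraries. DLGAP5, a spindle factor also known as HURP, was lower in ATRX_KO control (-0.33) and gave -0.11, 95% interval -0.30 to 0.09, in DAXX_KO control. PDZD11 is among the genes overlapping KIF4A, and OIP5 among those overlapping NUSAP1. In all, 21 members overlap another gene of the table, 18 of them on the other strand, and whether the counting used strand was not stated.

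At the midzone, KIF20A carries the passenger complex to the cleavage plane. It was at 74.2, 75.2 and 78.9 CPM in WT control, 42.7, 42.5 and 35.8 in DAXX_KO control, 3.90, 5.14 and 3.51 in WT with etoposide and 2.19, 3.93 and 2.80 in DAXX_KO with etoposide. KIF20A beside ATRX_KO read 95.9, 86.6 and 90.9 CPM in WT control, 38.7, 44.1 and 45.9 in ATRX_KO control, 7.85, 7.73 and 8.12 in WT with etoposide and 3.20, 4.62 and 2.79 in ATRX_KO with etoposide. It had the largest decrease of ATRX_KO control (-1.09 ± 0.10) and remained lower with etoposide (-1.15 ± 0.16), with no overlap of libraries. BRD8 and CDC23 overlap KIF20A with 20619 counts against 8487. KIF23, the centralspindlin motor, was at 99, 98.2 and 100 CPM in WT control, 48.4, 52.5 and 50.9 in DAXX_KO control, 2.64, 4.79 and 5.0 in WT with etoposide and 1.83, 3.83 and 2.80 in DAXX_KO with etoposide. The ATRX series values of KIF23 were 106, 106 and 103 CPM in WT control, 84.9, 80.1 and 94.3 in ATRX_KO control, 5.36, 6.58 and 4.11 in WT with etoposide and 6.67, 8.29 and 7.83 in ATRX_KO with etoposide. ATRX_KO lay below WT in control and above it with etoposide, an interaction of 0.79 ± 0.18 (adjusted p = 0.00733), and its control effect was smaller than that of DAXX_KO, a difference of -0.69 ± 0.15 (adjusted p = 0.000865).

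ECT2, the exchange factor that switches on RhoA at the cleavage furrow, was at 148, 130 and 144 CPM in WT control, 89.5, 87.6 and 84 in DAXX_KO control, 13.8, 14.5 and 13.1 in WT with etoposide and 15.4, 17.8 and 15.6 in DAXX_KO with etoposide. ECT2 in ATRX_KO and its own WT stood at 130, 145 and 126 CPM in WT control, 97.7, 100 and 102 in ATRX_KO control, 16, 14.6 and 13.8 in WT with etoposide and 21.8, 22 and 21.1 in ATRX_KO with etoposide. Both knockouts lay below WT in control and above it with etoposide, the latter called in ATRX_KO (0.55 ± 0.09) but not in DAXX_KO (0.24, 95% interval 0.01 to 0.46). Its interactions were 0.93 ± 0.13 (adjusted p = 6.85e-05) and 0.96 ± 0.12 (adjusted p = 5.93e-05). PRC1, which bundles midzone microtubules, was lower in DAXX_KO control (-0.47) with -0.18, 95% interval -0.35 to -0.02, in ATRX_KO. ANLN, the scaffold anillin, was lower in control in both (-0.38 and -0.91), more so in ATRX_KO by a difference of 0.53 ± 0.17 (adjusted p = 0.0178).

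MKI67, the Ki-67 proliferation marker, was at 570, 572 and 635 CPM in WT control, 467, 457 and 393 in DAXX_KO control, 82.3, 79.3 and 86.9 in WT with etoposide and 52.2, 52.1 and 50.6 in DAXX_KO with etoposide. Values of MKI67 around ATRX_KO were 676, 661 and 647 CPM in WT control, 662, 702 and 591 in ATRX_KO control, 106, 118 and 116 in WT with etoposide and 115, 155 and 137 in ATRX_KO with etoposide. DAXX_KO lay below WT with and without etoposide, and ATRX_KO overlapped WT in both, although MKI67 was called higher in ATRX_KO with etoposide (0.26 ± 0.10), a call lost without any of 4 of the 12 libraries. The control effect was -0.43 ± 0.07 in DAXX_KO and -0.02, 95% interval -0.22 to 0.18, in ATRX_KO, and the difference between the knockouts was -0.41 ± 0.12 (adjusted p = 0.00849).

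The knockout effects in control were compared across series in 1 fit of all 24 libraries. The effect was more negative in DAXX_KO for 11 members and more positive for 4, beside 17.2% and 17.0% of 16674 genes tested. With library totals alone it was more negative for 6 and more positive for 8, beside 12.7% and 21.3%. MYBL2 (1.46) and CCNA2 (0.56) were the most positive, and HMMR and KIF23 the most negative. The difference between the 2 interactions was positive for 10 members and negative for 1, AURKB, beside 1.92% and 1.08% of genes. CENPA and CCNB1 (1.35) led these 10, and the call of KIF4A was lost without any of 17 of the 24 libraries. The 2 WT control groups differed for 5 members, a count that lies near the share of all genes. Of these, 4 were lower in the DAXX series (7.22% of all genes) and 1 was higher (6.01%). MYBL2, UBE2C (-0.88), CDC20 (-0.46) and PTTG1 (-0.26) were lower, and HMMR was higher (0.34); the call of PTTG1 was lost without any of 12 of the 24 libraries.

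Compared with the 60 tested genes nearest to each on its chromosome, 37 of the 40 members lay below their neighbours' median in DAXX_KO control, with a median gap of -0.42, and 37 of 40 in ATRX_KO control, with a median gap of -0.34. The neighbours' medians themselves ran from -0.78 to 0.59 in DAXX_KO and from -0.68 to 0.23 in ATRX_KO. With etoposide 20 members lay below and 20 above their neighbours in DAXX_KO, and 24 below and 16 above in ATRX_KO.

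A list of 50 other mitotic and G2/M genes gave similar counts. This list and the lists below were, like the members, chosen with earlier results of these data known, so they are no independent check. In WT with etoposide 49 of 50 fell and 1 rose in the DAXX series, with a median of -2.50, and 48 fell and 1 rose in the ATRX series, with a median of -2.23. Of all genes, 30.2% fell and 30.1% rose in the DAXX series, and 29.8% and 31.7% in the ATRX series. TOP2A, the target of etoposide, had responses of -4.36 and -3.93. In control 32 were lower and 1 higher in DAXX_KO, with a median of -0.44, and 31 were lower in ATRX_KO, with a median of -0.31. The shares of all genes were 26.5% lower and 26.9% higher in DAXX_KO, and 21.0% and 20.8% in ATRX_KO. NEK2, a centrosome kinase, had the largest decrease in both (-1.51 and -1.57), and TACC3, a spindle factor, was the 1 called increase (0.46). With etoposide 17 were lower and 10 higher in DAXX_KO, beside 25.3% and 27.8% of all genes. In ATRX_KO with etoposide 22 were lower and 7 higher, beside 22.9% and 23.0%. The DAXX interaction was positive for 17 of the 50 and negative for 2, beside 8.18% and 5.90% of all genes. These were led by TRIP13 (1.73), a checkpoint ATPase, and by KIF18B (-1.79), a spindle motor. KIF18B stood at only 0.61, 0.72 and 0.34 CPM in DAXX_KO with etoposide, the last being the level of 3 counts in its library. The ATRX interaction was positive for 13 and negative for 4, beside 8.36% and 7.64%.

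Of 31 G1/S and DNA replication genes, 23 were lower and 2 higher in DAXX_KO control, with a median of -0.56, and 19 were lower and 2 higher in ATRX_KO control, with a median of -0.35. All genes tested gave 26.5% lower and 26.9% higher in DAXX_KO control, and 21.0% and 20.8% in ATRX_KO control. The mitotic members had medians of -0.45 in DAXX_KO control and -0.33 in ATRX_KO control, falls no larger than those of this list. In WT with etoposide 28 of 31 fell in the DAXX series and 25 in the other, beside 30.2% and 29.8% of all genes. Their medians were -1.67 and -1.49, smaller falls than the medians of the mitotic members. Their summed level was 3933 to 4003 CPM in WT control and 2624 to 2766 CPM in DAXX_KO control, and 4407 to 4480 against 3534 to 3696 CPM in the ATRX series. GINS4, a subunit of the replicative helicase, had the largest decrease in both knockouts (-1.46 and -1.59).

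Among 15 genes for DREAM, MuvB and p21 regulation, CDKN1A rose in WT with etoposide by 5.25 in both series, by 4.78 in DAXX_KO and by 3.71 in ATRX_KO. The CDKN1A interaction was -0.47 for DAXX_KO and -1.55 for ATRX_KO, and CDKN1A was higher in both knockouts in control (0.49 and 0.42). MuvB subunit LIN9 fell most in WT (-3.14 and -2.67), but its levels with etoposide were very low. They were 1.13, 0.239 and 0.54 CPM in WT of the DAXX series. The lowest of these was under the 0.359 CPM that 3 counts make in its library. WT of the ATRX series had 1.66, 1.05 and 0.401 CPM with etoposide. In DAXX_KO control the MuvB subunit LIN52 (-1.04) and the E2F partner TFDP1 (-1.06) were lower. In control 5 of the 15 were lower and 1 higher in DAXX_KO, and 3 lower and 1 higher in ATRX_KO, against 26.5% and 26.9% of all genes in DAXX_KO and 21.0% and 20.8% in ATRX_KO.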

How the data were processed

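QuantSeq 3' mRNA libraries of 24 samples in 8 groups of 3 were deposited as a gene table of estimated counts, which the authors made with STAR on hg19 and RSEM (version 1.2.3 in the submitters' processing notes); counts are raw, per gene, and 3' tags are not scaled by length. GENCODE v44lift37 symbols were found for 55501 of 57736 Ensembl IDs, which held 98.8% of counts. Counts were filtered with filterByExpr (minimum count 10, minimum total 15). They were scaled by TMM (factors 0.944 to 1.10 for DAXX libraries, 0.954 to 1.07 for ATRX libraries). Tests were run with glmQLFit and glmQLFTest of edgeR 4.0.16 (R 4.3.3). Each series had 1 fit of 12 libraries, and comparisons across series used 1 fit of all 24. P-values were adjusted by Benjamini-Hochberg over all genes tested and called at 0.05; all 40 members passed the filter in every fit. No member was at or under 3 counts in any library.

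The members and the other lists were chosen with earlier results of these data known. All 40 members were named by role, with values in every library for 14 preset members and, in each comparison, the 2 called members with the largest decrease and the 2 with the largest increase; of other lists, TOP2A, CDKN1A and genes of the largest called changes were named, and LIN52, TFDP1, and CCNB2 by library were added after their values were seen. 1 gene of the list for DREAM and MuvB regulation is not reported here and was left out of its counts. The fit was tested on simulated data. Alternatives were DESeq2 1.42.0, library totals without TMM, no filter, at least 10 counts in every library, only the compared groups, a replicate block and each library left out. Replicates of a group differed beyond counting noise in all 24 pairs (chi-square per degree of freedom 2.16 to 17.1). Depth limits precision most in etoposide groups, where the lowest member count was 10 (TTK). Promoters came from RefSeq (GRCh38.p14) and coordinates of genes from hg19.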

Additional observations from a re-analysis of the deposited data

Results flagged for a closer look

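The results in this section are differences between 2 effects, each from a test of the difference itself (edgeR's quasi-likelihood test, adjusted over all genes), for members past an adjusted p of 0.05. In the DAXX series the etoposide response of DAXX_KO differed from that of WT, always as a smaller fall or as a rise, for 19 members, beside 8.18% of all genes with a positive difference. CENPA (2.32), UBE2C (1.44) and CDC25B (1.07) had the largest differences. ECT2 (0.93), CCNB2 (0.93), CDCA8 (0.81), KIF11 (0.73), CENPE (0.72), PLK1 (0.69), CDC20 (0.63), TPX2 (0.62) and INCENP (0.61) followed. Smaller ones were those of MYBL2 (0.57), KIF4A (0.53), FOXM1 (0.48), KIF2C (0.47), CENPF (0.46), CCNB1 (0.44) and BIRC5 (0.35). Despite their smaller fall, BIRC5, CDC20 and CENPF were lower in DAXX_KO than in WT with etoposide.

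In the ATRX series 8 members had a smaller fall in ATRX_KO than in WT: NUF2 (1.00), ECT2 (0.96), KIF23 (0.79), CDK1 (0.76), CDC20 (0.75), AURKB (0.74), CENPA (0.69) and ESPL1 (0.64). CCNB1 (-0.93) and PTTG1 (-0.66) had a larger fall in ATRX_KO. Over all genes 8.36% had a positive and 7.64% a negative difference.

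The knockout effect in control differed between the 2 series for 15 members, a count near the share of all genes when both directions are pooled. By direction, 11 were more negative in DAXX_KO beside 17.2% of all genes, and 4 more positive beside 17.0%. With library totals alone the counts were 6 and 8, beside 12.7% and 21.3%. The effect was more positive in DAXX_KO for MYBL2 (1.46), CCNA2 (0.56), ANLN (0.53) and UBE2C (0.50). It was more negative in DAXX_KO for HMMR (-0.74), KIF23 (-0.69), KIF14 (-0.61), CDCA8 (-0.55), BUB1B (-0.53), KIF2C (-0.47), NDC80 (-0.44), BUB1 (-0.41), MKI67 (-0.41), CENPF (-0.37) and ECT2 (-0.28). Knockout, clone and series cannot be told apart in these values.

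The 2 interactions differed between the series for 11 members, beside 1.92% of all genes positive and 1.08% negative. The DAXX interaction exceeded the ATRX interaction for CENPA (1.62), CCNB1 (1.35), CCNB2 (1.17), CDC25B (1.06), MYBL2 (1.01), PTTG1 (0.88), PLK1 (0.86), TPX2 (0.71), KIF4A (0.63) and BIRC5 (0.60). AURKB (-0.81) was the 1 member with the opposite order, and the call of KIF4A was lost without any of 17 of the 24 libraries.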

How the results depend on the processing

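Of 26 counts of members called, those below moved by over 1.5 times. With library totals alone, DAXX_KO control had 5 higher members, the DAXX_KO response 0 higher, the DAXX interaction 1 lower, the knockout effect across series 6 lower and 8 higher, and the interaction across series 3 lower. TPX2 in DAXX_KO control then came out higher (0.18). Without a filter, ATRX_KO control had 1 higher member, the interaction across series 2 lower and the WT comparison 2 higher. With at least 10 counts in every library, the ATRX interaction had 4 lower members and the interaction across series 2. DESeq2 gave 3 lower members in the interaction across series and 2 higher in the WT comparison, and a fit of only the compared groups gave 4 higher in the latter. Leaving out single libraries gave 1 to 2 higher members in DAXX_KO control, 0 to 1 in the DAXX_KO response, 0 to 1 in ATRX_KO control, 3 to 8 in ATRX_KO with etoposide, 2 to 5 in the knockout effect across series and 1 to 2 in the WT comparison; lower members numbered 0 to 1 in the DAXX interaction and 0 to 3 in the interaction across series. The knockout effect across series fell to 2 higher members without DAXX_WT control replicate 2, DAXX_KO control replicate 2, ATRX_WT control replicate 1, or ATRX_KO control replicate 1 or 2. The cause of these moves was not tested.

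With the replicate number as a replicate block, none of the 26 counts moved by over 1.5 times and 11 of the 318 member calls were lost, among them CCNB1 in the DAXX interaction (0.43). The numbers did not pair the samples: same-numbered libraries correlated at -0.34 to 0.10 over 36 pairs, and 5 of 24 libraries correlated best, on average, with their own number. Scaling by RLE size factors moved none of the 26 counts by that much. Of the 318 member calls, 43 were lost when some single library was left out. Between knockout and WT these were UBE2C in DAXX_KO control, CCNA2, CCNB1, CCNB2, CENPA, DLGAP5, HMMR, KIF23, MYBL2 and TPX2 in ATRX_KO control, BUB1, CENPE, ESPL1, KIF4A, NUF2 and PRC1 in DAXX_KO with etoposide, and ANLN, CDK1, HMMR, INCENP, KIF23, KIF2C, KIF4A, MKI67, NDC80 and NUSAP1 in ATRX_KO with etoposide. Among responses and interactions they were CCNB1, CDCA8, FOXM1, KIF11 and KIF2C in the DAXX interaction, CENPA and ESPL1 in the ATRX interaction, MYBL2 in the DAXX_KO response, and MYBL2 in the WT response beside it. Across series they were ANLN, BUB1, ECT2, NDC80 and UBE2C in the knockout effect across series, AURKB and KIF4A in the interaction across series, and PTTG1 in the WT comparison. The lowest etoposide counts limit the precision of TTK, BUB1, CDC25C and CCNA2.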
